A study of Mus musculus with 8 samples.

Results

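The genes described are 10 members of the cytosolic heat shock response, chosen by gene name from a table of read counts for 55367 genes. They are the transcription factor gene Hsf1, the HSP70 family genes Hspa1a, Hspa1b and Hspa8, the HSP110 gene Hsph1, the HSP90 genes Hsp90aa1 and Hsp90ab1, and the co-chaperone and small heat shock protein genes Dnajb1, Bag3 and Hspb1. All 10 were found, and 7 of them passed the filter on low counts and were tested. The other 3, Hspa1a, Hspa1b and Hspb1, had almost no counts in any library.

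The study used Neuro2a (Neuroblastoma 2a), a mouse neuroblastoma cell line, transfected with plasmids for CRISPR activation (CRISPRa). Cells of the CRISPRa group received an sgRNA plasmid (750 ng) together with a sadCas9-VP64 plasmid (750 ng), where sadCas9 is a catalytically inactive Staphylococcus aureus Cas9 and VP64 is a transcriptional activator. Cells of the control group (no sgRNA) received the sadCas9-VP64 plasmid only, so both groups carry the activator, and the amount in the controls and the time after transfection are not given in the sources used here. The series is directed at SCN2A, a sodium channel gene, and no heat treatment is named in the labels. The labels give 4 samples per group, and counts of poly(A)-enriched RNA were analysed for 3 per group, replicates 2, 3 and 5 of CRISPRa and 2, 3 and 4 of no sgRNA. The labels do not say whether the samples came from separate cultures, so the p-values below measure only the spread between these samples, which may be technical.

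Under protein-damaging stress, the heat shock factor HSF1 forms trimers and binds heat shock elements, arrays of inverted GAA units in the promoters of chaperone genes. In unstressed cells HSF1 is held inactive by chaperones, while the constitutive chaperones Hspa8 and Hsp90ab1 fold proteins in the absence of stress. The stress-inducible genes, above all Hspa1a and Hspa1b, are transcribed strongly once HSF1 is active, so their transcripts are widely used as a readout of the response.

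Upstream sequence from RefSeq (GRCm38.p6) was matched by symbol for 6 of the 10 members. Shown are the 250 bases before the start site of the inducible pair, of Hspb1 and of Dnajb1. The pair and Hspb1 had almost no counts, and their stretches hold heat shock element letters. Dnajb1 was the only member that passed the test. Capitals mark matches to GAANNTTC or TTCNNGAA, the possible pairs of inverted units, searched on both strands with overlaps allowed.
Hspa1a, chr17:34972157-34972406, minus strand: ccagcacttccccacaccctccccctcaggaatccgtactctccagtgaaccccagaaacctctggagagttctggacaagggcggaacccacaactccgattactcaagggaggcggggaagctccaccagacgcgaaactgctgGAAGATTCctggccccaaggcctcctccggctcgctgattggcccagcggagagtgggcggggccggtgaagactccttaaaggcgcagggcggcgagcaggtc
Hspa1b, chr17:34959239-34959488, minus strand: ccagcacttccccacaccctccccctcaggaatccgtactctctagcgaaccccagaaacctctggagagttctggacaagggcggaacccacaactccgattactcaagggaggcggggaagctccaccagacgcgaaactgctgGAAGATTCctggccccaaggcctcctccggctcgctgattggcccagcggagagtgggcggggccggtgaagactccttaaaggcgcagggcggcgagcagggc
Hspb1, chr5:135887669-135887918, plus strand: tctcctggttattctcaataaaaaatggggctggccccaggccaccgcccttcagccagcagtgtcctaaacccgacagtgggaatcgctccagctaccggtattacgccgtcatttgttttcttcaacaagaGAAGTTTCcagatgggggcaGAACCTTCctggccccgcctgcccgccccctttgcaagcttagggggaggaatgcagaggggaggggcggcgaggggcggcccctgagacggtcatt
Dnajb1, chr8:83607925-83608174, plus strand: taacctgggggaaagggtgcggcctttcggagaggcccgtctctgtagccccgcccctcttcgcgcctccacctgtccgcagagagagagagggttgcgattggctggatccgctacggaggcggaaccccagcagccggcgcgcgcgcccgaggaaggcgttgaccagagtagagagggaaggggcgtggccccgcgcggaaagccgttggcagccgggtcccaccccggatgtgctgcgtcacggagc

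The Hspa1a and Hspa1b stretches differ at 3 of 250 bases and are 98.8% identical, and each holds 1 match, 104 bases before the start site. Hspb1 holds 2 matches, 117 and 97 bases before its start. Neither Dnajb1 window of the table holds a match, which says only that these letters are not in these windows. In Bag3 a match lies 42 bases after the RefSeq start. Hsph1 holds 3 matches, 1 before its start and an overlapping pair after it. The 30 bases around the matches after the start are shown because these members stood higher with CRISPRa without passing the test. The pair in Hsph1 forms a 3-unit array, which was searched as GAANNTTC followed by NNGAA or TTCNNGAA followed by NNTTC.
Hsph1, chr5:149636283-149636312, minus strand: aaatgctgcagaTTCTGGAAAGTTCtcctc
Bag3, chr7:128523603-128523632, plus strand: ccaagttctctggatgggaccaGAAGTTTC
Of the 6 members with a window, which spans 300 bases from 250 before to 50 after the start, 5 hold at least 1 match and 1, Hsph1, holds a 3-unit array. Counted per gene in the same way, 17.0% of 27025 genes with a window hold a match and 0.662% a 3-unit array, and of the 10671 genes that were also tested 13.7% and 0.581% do. Per window the shares are 15.1% and 0.603% of 32851. A match is a description of the letters and not a measured binding site.

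Total counts lay between 29739422 and 34248514 per library. CRISPRa replicate 5 and no-sgRNA replicate 4 stood apart from the other libraries of their groups: the chi-square per degree of freedom over tested genes was 15.0 to 18.7 in pairs with one of them and 4.87 and 6.22 in the pairs without them. Results on the members are therefore also given for the 4 libraries that remain without these 2. The 2 were chosen by their spread in these same counts, so leaving them out lowers the spread that remains. Adjusted p-values from fits without 1 or both of them may thus be too small and are given as a description. All 10 neuroblastoma markers were above 1 CPM (read counts scaled to the library size) in every library, and 3 of them were changed (Tubb3 higher, Hand2 and Phox2a lower), with a summed level of 1549 to 1785 CPM in CRISPRa libraries and 1825 to 1992 CPM in no-sgRNA libraries. Of 13 markers of other cell types, 2 exceeded 1 CPM in every library (Pecam1 and Col1a2), 2 were changed (Cdh5 higher, Col1a2 lower), and the list summed to 13.8 to 21.4 CPM in CRISPRa libraries and 23.3 to 25.9 CPM in no-sgRNA libraries. The epithelial marker Epcam had 0 counts in all 6 libraries and the leukocyte marker Ptprc at most 2. Other markers of these cell types did carry counts, with 14 to 30 per library for Krt8 (epithelium) and 18 to 48 for Cd68 (leukocytes). The part of these marker differences in the results below was not tested, and in bulk RNA fewer cells of a type and less RNA per cell cannot be told apart.

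The constitutive chaperones dominated the family. Levels of different genes were compared as TMM-normalised CPM (scaled with trimmed mean of M-values factors) per kilobase of exon. In the no-sgRNA libraries Hsp90ab1, the constitutive HSP90, stood at 1918 ± 211 CPM per kb (SD, n = 3). Hspa8, the constitutive HSP70 known as HSC70, followed at 435 ± 63.0 and the inducible HSP90 gene Hsp90aa1 at 166 ± 19.4 CPM per kb. Bag3, a nucleotide exchange factor that links HSP70 to selective autophagy, was at 41.7 ± 3.37 CPM per kb. The ranges of these 4 genes over the 3 no-sgRNA libraries did not overlap. Of the 50-base words in their annotated transcripts, 39.4% for Hspa8, 47.5% for Hsp90aa1 and 3.44% for Hsp90ab1 also occur in other genes. The part of shared reads in the gaps between these levels was not tested. Dnajb1, the J-domain protein that delivers clients to HSP70, was at 21.5 ± 2.92 and Hsph1, a nucleotide exchange factor of HSP70, at 17.6 ± 1.87 CPM per kb, and these neighbours overlapped. Hsf1 was lowest of the tested members at 14.8 ± 0.445 CPM per kb, below every library of Hsph1. In the CRISPRa libraries the order of Dnajb1 and Hsph1 was the other way round, with 16.9 to 18.2 CPM per kb for Dnajb1 and 18.7 to 22.7 for Hsph1. The 10 genes together took 0.776% to 0.861% of the total with CRISPRa and 0.799% to 0.962% without the guide.

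**Figure D1:**
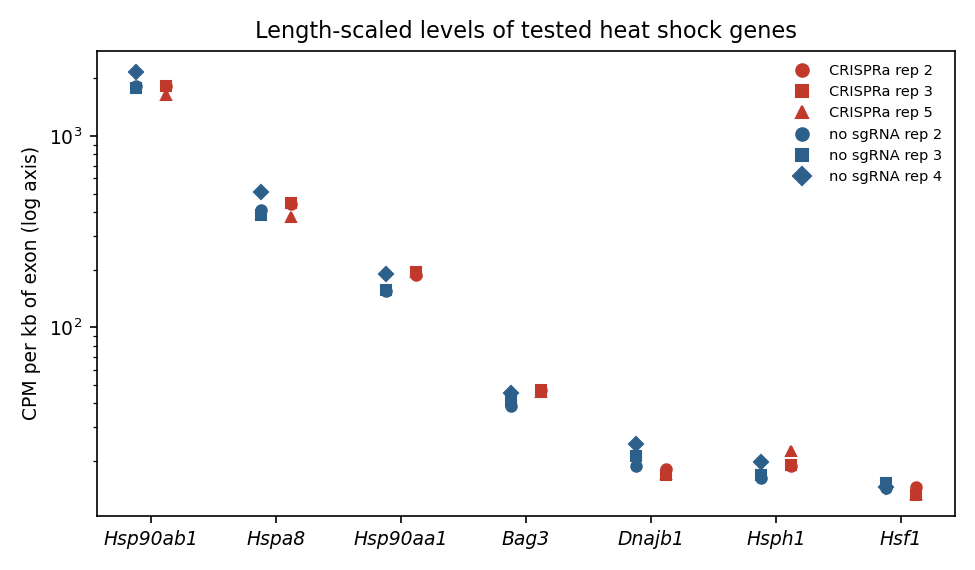
Length-scaled level (CPM per kb of exon, logarithmic axis) of the 7 tested members, ordered by their mean in the no-sgRNA libraries; each point is 1 library, blue for no sgRNA and red for CRISPRa. Hsp90ab1 is highest with a no-sgRNA mean of 1918 CPM per kb, and Dnajb1 and Hsph1 exchange places between the groups.

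Inducible HSP70 was close to absent from the counts. Hspa1a (chromosome 17, 34969190 to 34972156, minus strand) had 14, 0 and 0 counts in CRISPRa replicates 2, 3 and 5 and 4, 0 and 0 counts in no-sgRNA replicates 2, 3 and 4. Hspa1b (chromosome 17, 34956436 to 34959238, minus strand) had 2, 4 and 0 counts with CRISPRa and 0 in every no-sgRNA library. The pair summed to 16, 4 and 0 counts against 4, 0 and 0. The groups thus overlapped, and most of the counts came from CRISPRa replicate 2. On the CPM scale the summed pair stood at 0.196 ± 0.241 with CRISPRa and 0.0437 ± 0.0757 without the guide (SD, n = 3), a difference of 0.152 CPM (exact permutation, two-sided, p = 0.7). Without CRISPRa replicate 2 the difference was 0.0178 CPM. With 3 libraries against 3 the smallest possible p is 0.1. Hspb1 (chromosome 5, 135887919 to 135889563, plus strand), which encodes the small heat shock protein HSP25, had 4, 1 and 2 counts with CRISPRa and 2, 2 and 0 without the guide. A floor of 3 counts, which is 0.0871 to 0.101 CPM in these libraries, was set rather than measured. Counts under it, such as the 1 and 2 above, are too few to give a level at this depth.

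These counts depend on how reads that fit several places were treated, which is not given in the sources used here. Of the 50-base words in annotated Hspa1a transcripts (GENCODE M21), 66.3% also occur in other genes, 58.8% in Hspa1b. For Hspa1b the share was 62.3%. Of the Hspb1 words, 50.1% are shared, nearly all of these with the processed pseudogene Hsp25-ps1, which had 0 counts in every library. The part of such reads in the counts of the 3 genes was not tested.

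HSF1 itself did not differ between the groups by more than the libraries did. Hsf1 (chromosome 15, 76477422 to 76501913, plus strand) had 103, 94.8 and 95.8 CPM in CRISPRa replicates 2, 3 and 5 and 103, 108 and 104 CPM in no-sgRNA replicates 2, 3 and 4. CRISPRa replicate 2 lay within the range of the controls and the other CRISPRa libraries lay below it. The log2 fold change was -0.10 (SE 0.07, edgeR quasi-likelihood test, Benjamini-Hochberg adjusted p = 0.345), and it did not pass the adjusted threshold of 0.05 in any of the 20 other fits run for this gene.

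Across the tested members, 1 of 7 was changed, Dnajb1, which was lower with CRISPRa. Over all 15117 tested genes, 18.7% were changed, 9.47% higher and 9.25% lower, so the members' share of 14.3% was near this background. No member was called higher by edgeR, where 3 of the 7 had an unadjusted p under 0.05 in that direction. Of all 15117 tested genes, 2311 had such a p in that direction. DESeq2 and limma-voom each called 1 member higher, Hsp90aa1. Of all tested genes they called 1621 and 1439 higher. The median log2 fold change of the 7 genes was -0.04, beside -0.01 over all tested genes, with a range from -0.30 to 0.21. The groups did not overlap for 2 of the 7, Dnajb1 and Bag3, against 36.4% of all tested genes. In the 4 libraries without CRISPRa replicate 5 and no-sgRNA replicate 4 the count was 4 of 7, all higher (Hsp90aa1, Bag3, Hsph1 and Hspa8), and Dnajb1 was not among them. That fit called 18.5% of its 15305 genes, with 9.41% in the higher and 9.08% in the lower direction.

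**Figure D2:**
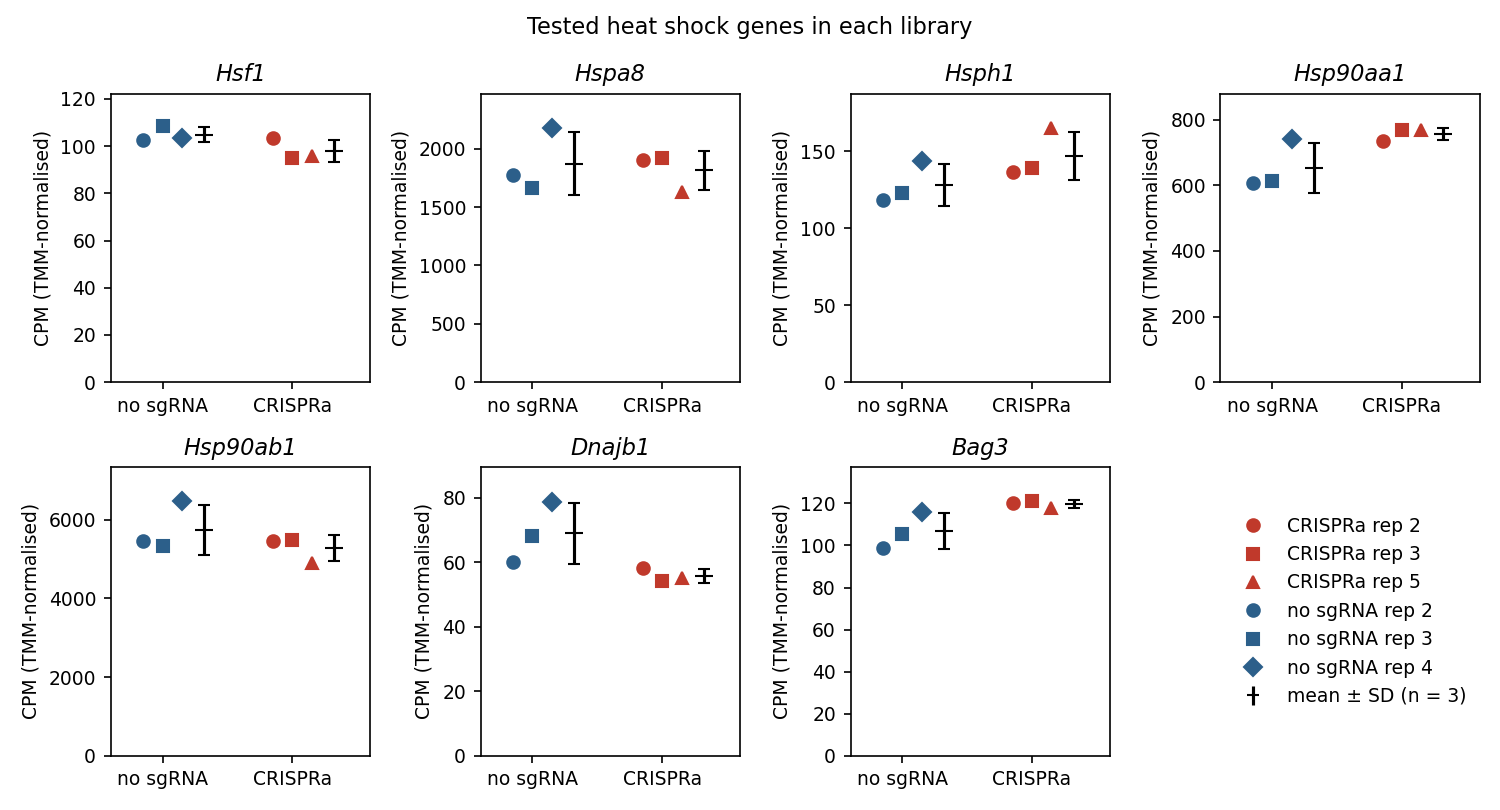
TMM-normalised CPM of each tested member in the 6 libraries (symbols), with the mean and SD of each group in black (n = 3) and axes from 0. No-sgRNA replicate 4 (diamond) is the highest control in 6 of the 7 genes, Hsf1 being the exception, and only Dnajb1 and Bag3 have groups that do not overlap.

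Dnajb1 (chromosome 8, 83608193 to 83612653, plus strand) fell. It had 58.2, 54.1 and 55.1 CPM in CRISPRa replicates 2, 3 and 5 and 60.0, 68.0 and 78.7 CPM in no-sgRNA replicates 2, 3 and 4. Every CRISPRa library was below every control, with the narrowest gap to no-sgRNA replicate 2. The means were 55.8 ± 2.15 and 68.9 ± 9.36 CPM (SD, n = 3), and the fitted log2 difference was -0.30 (SE 0.09, edgeR adjusted p = 0.0311). The call depended on the libraries: leaving out 1 library at a time, it passed in 1 of 6 fits, the one without no-sgRNA replicate 2, with the log2 fold change between -0.40 and -0.20. In the 4 libraries without CRISPRa replicate 5 and no-sgRNA replicate 4 it was -0.19 (edgeR adjusted p = 0.105). Dnajb1 in the authors' deposited table, which by its name covers 8 samples, was listed at -0.25 on the log2 scale (SE 0.083) with adjusted p = 0.0119. The series has 8 samples in all, so by its name that table includes the 6 libraries analysed here. Its values, here and below, are not independent of them. Only 0.412% of its 50-base words occur in other genes.

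Within HSP90, the inducible gene stood higher relative to the constitutive one in each CRISPRa library than in any control. Hsp90aa1 (chromosome 12, 110690605 to 110702728, minus strand) had 736, 768 and 768 CPM with CRISPRa and 608, 612 and 742 CPM without the guide. Only no-sgRNA replicate 4 reached the CRISPRa range. The log2 fold change was 0.21 (SE 0.08, edgeR adjusted p = 0.0663), which did not pass. It was 0.30 (edgeR adjusted p = 1.18e-05) in the 4 libraries without CRISPRa replicate 5 and no-sgRNA replicate 4, and 0.31 (edgeR adjusted p = 0.00182) without no-sgRNA replicate 4 alone. Hsp90aa1 also passed with DESeq2 (adjusted p = 0.0341) and limma-voom (adjusted p = 0.0473), while its adjusted p spanned 8.74e-10 to 0.256 across the 20 alternatives. Hsp90aa1 in the authors' deposited table was listed at 0.26 on the log2 scale (SE 0.064) with adjusted p = 0.000549.

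Hsp90ab1 (chromosome 17, 45567775 to 45573271, minus strand) had 5461, 5483 and 4896 CPM with CRISPRa and 5450, 5323 and 6480 CPM without the guide. The groups overlapped, with the highest value in no-sgRNA replicate 4 and the lowest in CRISPRa replicate 5. The log2 fold change was -0.12 (SE 0.08, edgeR adjusted p = 0.308), and 0.024 in the 4 libraries without these 2. The ratio of the 2 genes within a library needs no scaling. Hsp90aa1 stood at 10.3%, 10.7% and 11.97% of the Hsp90ab1 counts per kb in CRISPRa replicates 2, 3 and 5, and at 8.51%, 8.77% and 8.73% in no-sgRNA replicates 2, 3 and 4. The groups did not overlap, and the controls lay close together, no-sgRNA replicate 4 included. The log2 ratio was -3.19 ± 0.114 with CRISPRa and -3.53 ± 0.024 without the guide (SD, n = 3), a difference of 0.34 with an exact two-sided permutation p of 0.1, the smallest that 3 against 3 allows. Leaving out 1 library gave differences from 0.27 to 0.38. Of the Hsp90aa1 words 47.5% are shared, 41.8% with the transcribed processed pseudogene Gm12346, whose own counts were 0.537% ± 0.0849 of those of Hsp90aa1 with CRISPRa and 0.492% ± 0.0608 without the guide (SD, n = 3).

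**Figure D3:**
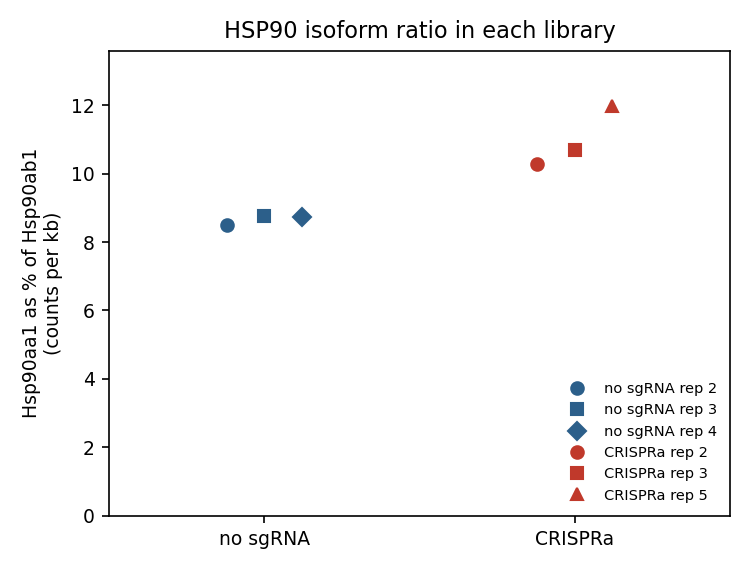
Hsp90aa1 as a percentage of Hsp90ab1, both as counts per kb, in each of the 6 libraries; the vertical axis starts at 0. The 3 CRISPRa libraries lie between 10.3% and 11.97% and the 3 no-sgRNA libraries between 8.51% and 8.77%.

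Hspa8 (chromosome 9, 40800984 to 40810087, plus strand) had 1902, 1923 and 1624 CPM in CRISPRa replicates 2, 3 and 5 and 1772, 1664 and 2178 CPM in no-sgRNA replicates 2, 3 and 4. The highest and the lowest value came from no-sgRNA replicate 4 and CRISPRa replicate 5, and the groups overlapped. The log2 fold change was -0.04 (SE 0.09, edgeR adjusted p = 0.797). In the 4 libraries without these 2 it turned to 0.16 (edgeR adjusted p = 0.00352), so neither its direction nor its call holds over both sets of libraries. For Hspa8 the authors' deposited table gives 0.048 on the log2 scale with an adjusted p of 0.711.

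A pseudogene of Hspa8 also carried counts, and reads of the gene and of the pseudogene's own transcript cannot be told apart here. The processed pseudogene Gm15459 (chromosome 5, 5781615 to 5783555, minus strand) shares 86.8% of its 50-base words with Hspa8 transcripts. It had 20980, 20334 and 17440 counts with CRISPRa and 18338, 17692 and 22327 without the guide, with its highest value in no-sgRNA replicate 4 and its lowest in CRISPRa replicate 5, as for Hspa8. That is 32.5% ± 0.554 of the Hspa8 counts with CRISPRa and 34.03% ± 1.71 without the guide (SD, n = 3). Adding the counts of the main pseudogenes to those of Hspa8, Hsp90aa1 and Hspb1, an alternative chosen after the data were seen, left 1 member changed, Dnajb1.

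Ddb1, Akr1e1 and Baiap2l1 were among the 4 genes outside the chaperone lists whose log2 CPM followed Hspa8 most closely over the 6 libraries. Their Pearson correlations were 0.989, 0.989 and 0.978, taken over 9384 genes with a mean of at least 10 CPM, and are given as a description. Each of the 3, like Hspa8, was highest in no-sgRNA replicate 4 and lowest in CRISPRa replicate 5, and none was changed between the groups. As these genes were picked for following Hspa8 over the same libraries, this likeness comes largely from the choice and is not a separate result.

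Hsph1 and Bag3, both exchange factors of HSP70, stood higher with CRISPRa but did not pass. Hsph1 (chromosome 5, 149614287 to 149636376, minus strand) had 136, 139 and 165 CPM with CRISPRa and 118, 123 and 144 CPM without the guide. The groups overlapped through no-sgRNA replicate 4, which exceeded CRISPRa replicates 2 and 3. The log2 fold change was 0.20 (SE 0.09, edgeR adjusted p = 0.140), and it passed at 0.20 (edgeR adjusted p = 0.0153) in the 4 libraries without CRISPRa replicate 5 and no-sgRNA replicate 4, and at 0.29 (edgeR adjusted p = 0.037) without no-sgRNA replicate 4 alone.

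Bag3 (chromosome 7, 128523616 to 128546981, plus strand) had 120, 121 and 118 CPM with CRISPRa and 99.0, 106 and 116 CPM without the guide. Every CRISPRa library exceeded every control, by a small margin over no-sgRNA replicate 4. The log2 fold change was 0.16 (SE 0.07, edgeR adjusted p = 0.127). In the 4 libraries named above it was 0.24 (edgeR adjusted p = 0.00587), and without no-sgRNA replicate 4 alone 0.23 (edgeR adjusted p = 0.0343). Bag3 in the authors' deposited table had an adjusted p of 0.00150 at a log2 fold change of 0.25, and Hsph1 one of 0.125 at 0.13. Neither Hsph1 nor Bag3 shares any 50-base word with another gene.

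No-sgRNA replicate 4 was the highest control library in 6 of the 7 tested members. The coefficient of variation was larger without the guide than with CRISPRa for Hspa8 (14.5% against 9.18%), Hsp90aa1 (11.6% against 2.43%), Hsp90ab1 (11.0% against 6.30%), Dnajb1 (13.6% against 3.86%) and Bag3 (8.07% against 1.497%). For Hsph1 it was 10.6% against 10.7%, and for Hsf1 3.01% against 4.70%. These spreads rest on 3 libraries each and were not tested against each other.

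**Figure D4:**
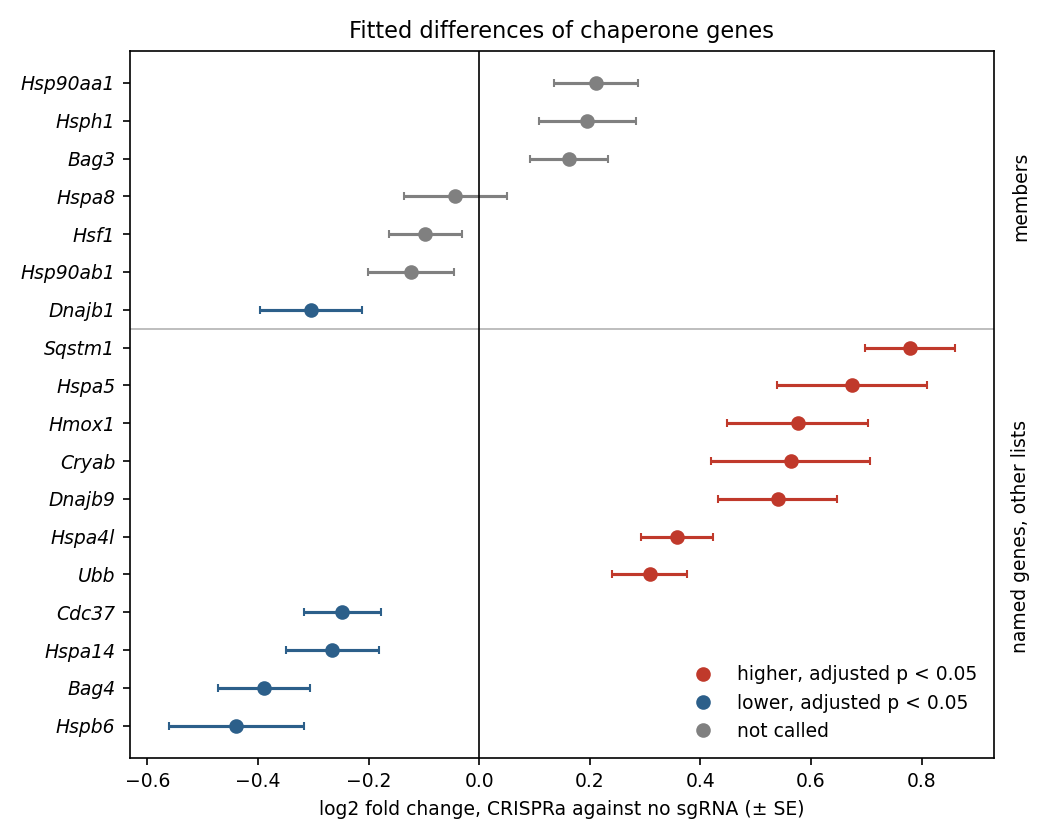
Fitted log2 fold change (CRISPRa against no sgRNA, bars ± SE) of the 7 tested members above the line and of the changed genes named from the other chaperone and heat shock lists below it. Dnajb1 at -0.30 is the only coloured member; Sqstm1 at 0.78 is the highest of the other genes and Hspb6 at -0.44 the lowest.

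The wider cytosolic network was described through 7 lists with 68 genes. Of these, 64 were tested and 10 were changed, 6 higher and 4 lower, a share of 15.6% beside 18.7% of all tested genes. The median log2 fold change of the 64 genes was -0.08. In the 4 libraries without CRISPRa replicate 5 and no-sgRNA replicate 4 the count was 14 of 63 tested, with 7 higher and 7 lower, beside 18.5% of all genes tested in that fit. Of the 10 genes, 9 were among them and Hspb6 was not.

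The list labelled other heat-induced genes also holds Rbm3 and Cirbp, which are known as cold-induced genes. Of its 11 genes, 4 rose and none fell, a share of 36.4% beside 18.7% of all tested genes, of which 9.47% were higher. Rbm3 and Cirbp stood at log2 fold changes of -0.10 and -0.16 and were not changed. The median log2 fold change of the 11 genes was -0.09. Sqstm1, the autophagy receptor p62, rose from 903 ± 34.7 to 1548 ± 202 CPM (SD, n = 3), with a fitted log2 difference of 0.78 (SE 0.08, edgeR adjusted p = 1.08e-05). Its libraries ran from 872 to 940 CPM without the guide and from 1407 to 1779 CPM with CRISPRa. Ubb, which encodes polyubiquitin, rose from 692 ± 15.4 to 857 ± 71.9 CPM (log2 fold change 0.31, edgeR adjusted p = 0.0055). Hmox1, the haem-degrading enzyme heme oxygenase 1, rose from 84.2 ± 10.8 to 125 ± 28.3 CPM (log2 fold change 0.58, edgeR adjusted p = 0.00549), with its highest value, 158 CPM, in CRISPRa replicate 5. Sqstm1 and Hmox1 are also textbook targets of the oxidative stress factor NRF2. The values of Ubb and Sqstm1 are uncertain, as 48.1% and 15.5% of their words are shared with other genes.

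In the list of HSP70 relatives and exchange factors, 3 of 13 were changed, a share of 23.1% beside 18.7% of all tested genes. Hspa4l, an HSP110 relative of Hsph1, rose from 94.3 ± 4.50 to 121 ± 1.47 CPM (log2 fold change 0.36, SE 0.06, edgeR adjusted p = 0.00147). Bag4 fell from 43.7 ± 2.89 to 33.3 ± 1.19 CPM (-0.39, edgeR adjusted p = 0.00466) and Hspa14 from 56.0 ± 1.69 to 46.6 ± 4.85 CPM (-0.27, edgeR adjusted p = 0.0408), each with n = 3. Shared words made up 13.6% of Bag4 and 6.83% of Hspa14, so their values are uncertain. Leaving out 1 library, Hspa14 passed in 1 of 6 fits, while Bag4 and Hspa4l passed in all 6.

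Of 15 HSP90 co-chaperones, Cdc37, which loads kinases onto HSP90, fell from 151 ± 6.35 to 127 ± 8.85 CPM (-0.25, SE 0.07, edgeR adjusted p = 0.0214), and it passed in 2 of 6 fits that left out 1 library. It was the only changed gene of this list, a share of 6.67% beside 18.7% of all tested genes. No co-chaperone of this list was called higher, where 1 had an unadjusted p under 0.05 in edgeR, and DESeq2 and limma-voom also called 0 higher. Of 6 tested small heat shock protein genes, Cryab (alpha B-crystallin) rose from 8.94 ± 1.66 to 13.2 ± 0.469 CPM (0.56, edgeR adjusted p = 0.0134) and Hspb6 fell from 16.0 ± 1.76 to 11.8 ± 0.577 CPM (-0.44, edgeR adjusted p = 0.0206). These 2 genes were 33.3% of the 6 tested, beside 18.7% of all tested genes. Cryab passed in 4 and Hspb6 in 3 of the 6 fits that left out 1 library. Exons of other genes cover 17.0% of Cryab, and 13.3% of its words are shared with its neighbour Hspb2.

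None of the 8 J-domain co-chaperones, the 8 subunits of the TRiC chaperonin (a cytosolic folding chamber for actin and tubulin) and the 3 tested HSF genes and regulators was changed in edgeR. Over all tested genes 18.7% were changed, so with 3 to 8 genes per list a count of 0 is not far from this background. At an unadjusted p under 0.05 there were 0, 3 (all lower) and 0 genes in these lists. Of all 15117 tested genes, 2414 were lower at that level. DESeq2 and limma-voom each called 1 TRiC gene, lower, and none of the others. The HSF family genes Hsf3 and Hsf5 and the small heat shock protein genes Cryaa and Hspb3 did not pass the filter on low counts.

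Chaperones of the endoplasmic reticulum and mitochondria were set beside the cytosolic genes. Of 14 genes, 2 rose and none fell, a share of 14.3%. Over all tested genes 18.7% were changed, 9.47% higher. At an unadjusted p under 0.05, 5 of the 14 were higher and 0 lower, beside 2311 and 2414 of all 15117 tested genes. The median log2 fold change of the 14 genes was 0.13. Hspa5, the endoplasmic reticulum HSP70 known as BiP, had 827, 906 and 1366 CPM in CRISPRa replicates 2, 3 and 5 and 600.2, 642 and 699 CPM in no-sgRNA replicates 2, 3 and 4, without overlap and with CRISPRa replicate 5 far above the rest. Its log2 fold change was 0.67 (SE 0.14, edgeR adjusted p = 0.00304) and 0.48 in the 4 libraries without CRISPRa replicate 5 and no-sgRNA replicate 4. Dnajb9, an endoplasmic reticulum J-domain protein, rose from 36.9 ± 1.40 to 53.6 ± 9.54 CPM (0.54, edgeR adjusted p = 0.00279). Both passed in all 6 fits that left out 1 library. Of the 10 changed genes of the 7 cytosolic lists, all 10 had the same sign in the authors' deposited table, and 9 had an adjusted p under 0.05 there. By its name that table covers all 8 samples of the series, the 6 libraries analysed here included, so its values are not independent of them.

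**Figure D5:**
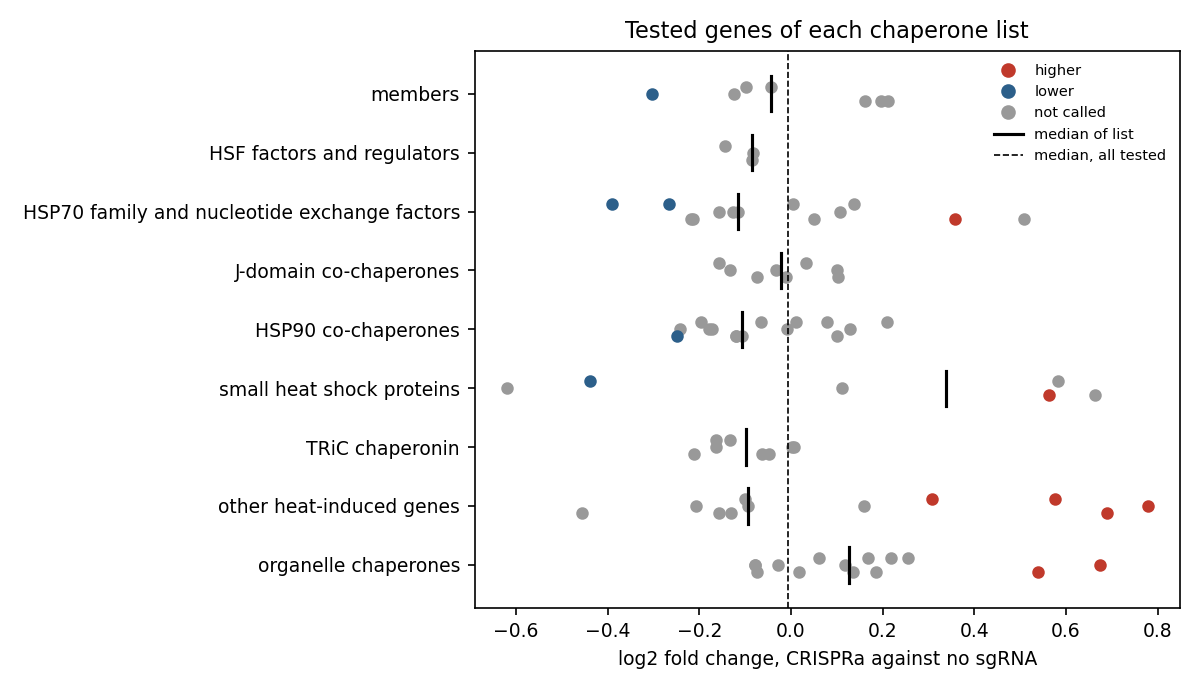
Log2 fold change (CRISPRa against no sgRNA) of every tested gene in the members' list and the 8 other lists; each point is 1 gene, red if higher and blue if lower at an adjusted p under 0.05, black bars are list medians and the dashed line is the median of all tested genes, -0.01. The list labelled other heat-induced genes, which also holds the cold-induced Rbm3 and Cirbp, has 4 red points. The J-domain, TRiC and HSF lists hold no coloured point.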

How the data were processed

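RNA-seq counts of 6 Neuro2a libraries entered the fits, 3 per group; replicate 1 of CRISPRa and replicate 5 of the controls are not analysed here. Per the submitters' processing notes, the authors aligned reads with STAR 2.5.1b to mm10 and counted them with featureCounts; annotation, strandedness and the handling of multi-mapping reads are not given in the sources used here. The deposited counts are whole numbers per gene without normalization. The gene length in the same deposited table is the summed exon length. A deposited table of the authors' own comparison (8 samples in its name) gives, per the file headers, a mean normalised signal, log2 fold changes and their errors, a test score and p-values, raw and adjusted. Its contrast is not stated; positive values were taken as higher with CRISPRa.

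Genes were filtered with filterByExpr, scaled with TMM and tested with edgeR 4.0.16 (glmQLFit, glmQLFTest, no covariate, R 4.3.3), with Benjamini-Hochberg adjustment over 15117 genes and a threshold of 0.05. CPM uses TMM-scaled totals of the tested genes; SE is the size of the log2 fold change over the square root of F. The procedure was tested on simulated data. Coordinates are on GRCm38 from the table; 52949 of 55367 gene names have the same span in GENCODE M21. Members and lists were chosen with earlier results of these data known. Named genes are the members, up to 5 changed genes per list, and the 4 genes most like Hspa8; the planned likeness and ratio for Hspa1a plus Hspa1b were not computed, because the pair was at 0 in 3 of 6 libraries. Some genes that this rule names are not reported here. Markers and Gm12346, Gm15459 and Hsp25-ps1 were named after their values were seen. Alternatives used DESeq2 1.42.0 and limma 3.58.1, other scalings, filters and thresholds, removal of length or GC trends (lowess, span 0.2), summed paralogs, left-out libraries and a replicate block. Replicate numbers 2 and 3 occur in both groups, and libraries with the same number did not deviate together, so no block was used in the main test.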

Additional observations from a re-analysis of the deposited data

How the results depend on the processing

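The number of changed members (1) was 2 with library-size scaling, no filter, a stricter filter (1 CPM in 4 libraries), DESeq2, limma-voom or an adjusted p under 0.1, 3 with the gene-length trend removed and 0 at an adjusted p under 0.01, where 4 had an unadjusted p under 0.05. Leaving out 1 library gave from 0 to 3, and where it gave 0 there were 1 to 3 at an unadjusted p under 0.05. The cause was not tested, apart from the thresholds. The share of all tested genes that was changed also differed between these fits. It was 18.4% with library-size scaling, 12.1% with no filter and 22.3% with the stricter filter. With DESeq2, limma-voom and the length trend removed it was 20.5%, 19.0% and 18.3%. At an adjusted p under 0.01 and 0.1 it was 9.37% and 25.5%, and without 1 library 12.8% to 16.2%. The network count (10) was 6 at an adjusted p under 0.01 and 16 at 0.1, and ranged over 7 to 10 without single libraries. The organelle count (2) was 4 with no filter, and 2 to 3 without 1 library. Hspa8 ranged from -0.12 to 0.080 without single libraries, turning to 0.039 without CRISPRa replicate 5 and to 0.080 without no-sgRNA replicate 4. The direction of the 17 other genes tested with alternatives, Hsp90ab1 aside, held in all 20 alternatives of each.

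With the replicate block on the 4 libraries numbered 2 and 3, the changed members were 4, as in the same 4 libraries without the block (4), and 4 with the block and the length trend removed, which also gave 19 network and 5 organelle genes. The network and organelle counts were 14 and 3 with the block. Of all 15305 genes tested in these fits, 20.7% were changed with the block and 18.5% without it. With the block and the length trend removed the share was 21.4%. Hspa8 turned to 0.16 with the block, 0.16 without it and 0.17 with the block and the length trend removed, and Hsp90ab1 to 0.024, 0.024 and 0.048. The pairing was weak, with correlations of deviations of -0.040 and -0.023 for numbers 2 and 3. With the block, the mean within-number difference was 0.228 CPM for Hspa1a plus Hspa1b and 0.28 for the log2 ratio of Hsp90aa1 to Hsp90ab1. The Hspa1a plus Hspa1b difference ran from 0.0178 to 0.250 CPM without 1 library. Hspa1a, Hspa1b and Hspb1 are limited by depth, with at most 14 counts of any in a library.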
